A study of Mus musculus with 7 samples.

Results

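The genes described here write, erase or read methylation of lysine 4 on histone H3 (H3K4), and were measured in testis of mice lacking Phf13. A total of 30 genes were chosen by symbol from what their products are known to do, by a rule that uses no measured value but was set with earlier results of these data known: 9 writers, 10 subunits of writer complexes, 6 erasers and 5 readers. Of these, 29 had a probe set assigned to that symbol alone and were among the 18194 genes tested. Ash1l, which encodes a histone methyltransferase, had none and was not analysed here. A gene with several such probe sets was represented by the one with the highest mean signal over all arrays.

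H3K4 trimethylation marks the promoters of active genes, and monomethylation marks enhancers. The marks are placed by SET-domain enzymes of the Kmt2 and Setd1 families, which act in large complexes built around the shared core subunits Wdr5, Rbbp5, Ash2l and Dpy30, and they are removed by the Kdm1 and Kdm5 demethylases. The product of Phf13 reads H3K4 methylation through its PHD finger, and in the testis H3K4 methylation also marks sites of meiotic recombination, where it is placed by Prdm9.

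The arrays measured RNA of whole testis from mice labelled Phf13 knockout (3 arrays) or wild type (4 arrays), all aged 15 to 20 weeks. The knockout allele, its construction and the strain are not given in the sources used here, and nothing in the labels says that each array is a separate animal, so p-values measure the spread between arrays. Values are log2 signals, and a fold change is the knockout mean minus the wild type mean on that scale. Phf13 itself read 6.04, 5.83 and 5.71 in knockout 1 to 3 against 8.66, 8.64, 8.73 and 8.54 in wild type 1 to 4, so the genotype labels and the targeted gene went together in all 7 arrays. The first 4 digits of the array titles form 3 groups that each hold both genotypes (a, knockout 1 and wild type 1; b, knockout 2 with wild type 2 and 3; c, knockout 3 and wild type 4); their meaning is not stated, and differences within them are given beside the pooled values.

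Among the 29 measured genes, 4 rose in knockout testis and 0 fell. The 4 were the writer Kmt2c, the complex subunits Wdr82 and Hcfc1, and the demethylase gene Phf8, with levels 1.66-fold, 1.47-fold, 1.43-fold and 1.39-fold higher. These calls used limma with Benjamini-Hochberg adjustment over all genes at 0.05. By that rule 16.1% of all genes passed, 9.07% rising and 7.05% falling, against 13.8% of the members rising and 0 falling. At an unadjusted p under 0.05, 7 members were higher and 3 lower, against 2799 higher and 3347 lower of all genes. In both directions together that is 10 of 29 members and 6146 of 18194 genes. The median log2 fold change was 0.06 over the members and −0.05 over all genes, and the median of its size without sign was 0.14 for both. With each array centred on its median, 5 members rose (Setd7 joined) and 1, Cxxc1, fell, while over all genes the split moved from 1651 rising and 1283 falling to 1635 and 2042.

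**Figure D1:**
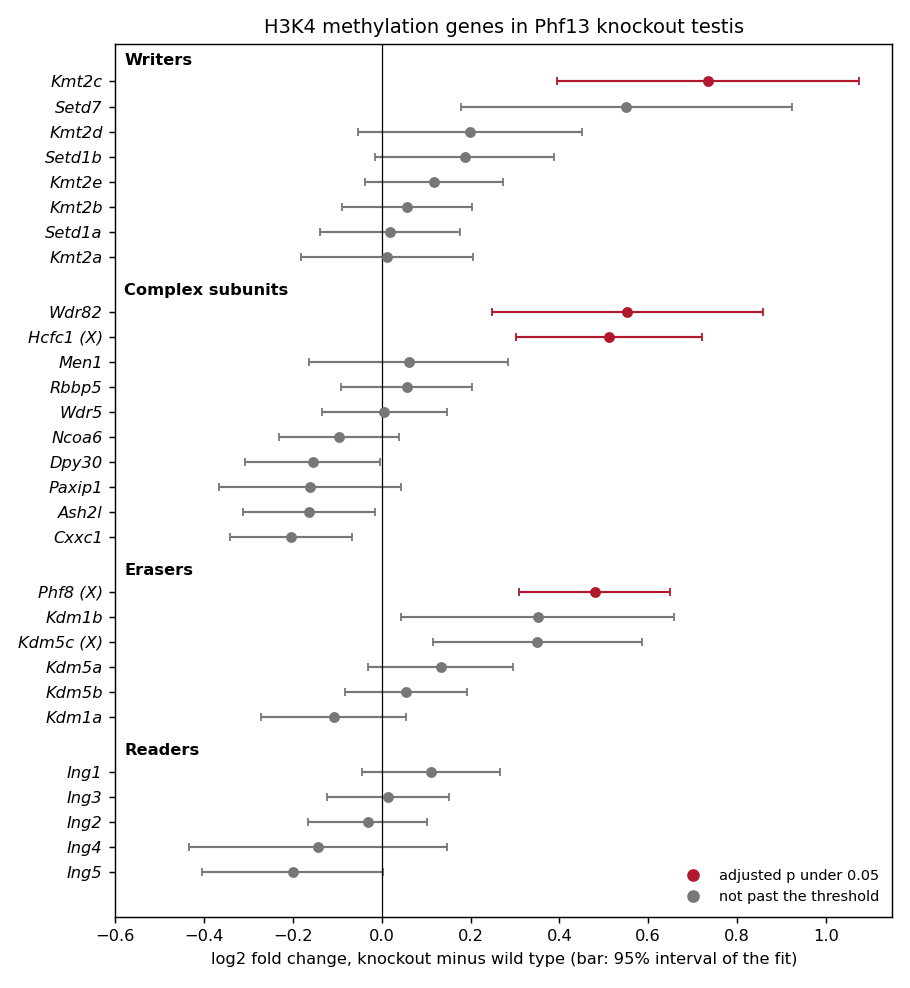
Log2 fold change (knockout minus wild type, x axis) of the 29 measured genes by role, with the 95% interval of the fit as the bar and genes past an adjusted p of 0.05 in red; (X) marks X-linked genes. Kmt2c lies farthest to the right at 0.73, all 8 writers lie above 0, and the complex subunits run from 0.55 for Wdr82 to −0.20 for Cxxc1.

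Kmt2c encodes a writer of H3K4 monomethylation at enhancers. Knockout 1, 2 and 3 had log2 signals of 7.28, 6.67 and 7.19, against 6.30, 6.11, 6.43 and 6.41 in wild type 1 to 4. All knockout arrays lay above all wild type arrays, with knockout 2 nearest to them. The means were 7.05 ± 0.33 (SD, n = 3) and 6.31 ± 0.15 (SD, n = 4), a log2 fold change of 0.73 (SE 0.15, limma adjusted p = 0.0185). Within groups a, b and c the difference was 0.98, 0.40 and 0.78. The call was lost without knockout 1 (0.62, adjusted p = 0.0622), without knockout 3 (0.66, adjusted p = 0.0708) or without wild type 1 (0.73, adjusted p = 0.0570).

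On the brightest probe sets all 8 measured writers had a positive fold change, with a median of 0.15. Over all genes 7295 of 18194 were positive. Kmt2d, Kmt2e, Setd1b and Setd7 each had a dimmer probe set with a negative fold change, while the remaining dimmer probe sets of the writers were positive. On its brightest probe set, no writer other than Kmt2c passed the test. Setd7, a methyltransferase that adds a single methyl group, came closest: its signals were 5.35, 5.36 and 5.53 in knockout and 4.75, 4.48, 4.96 and 5.26 in wild type. The genotypes did not overlap, and wild type 4 lay close under the knockout arrays. Their means differed by 0.55 (SE 0.16, limma adjusted p = 0.0532). Of the fits that left out 1 array, only that without wild type 4 passed (0.68, adjusted p = 0.0248). The dimmer Setd7 probe set was at −0.04 with overlapping arrays, and the mean of both probe sets gave 0.25 (adjusted p = 0.103). The Setd7 signal stood at percentile 31.7 of all genes and was not shown to lie above background.

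For the remaining writers the intervals set how large a difference these arrays allow on the brightest probe set of a gene. A dimmer Kmt2a probe set, described below, was at 0.57, outside the interval of the brightest. Kmt2d, the closest relative of Kmt2c, had a log2 fold change of 0.20 (95% interval −0.05 to 0.45), and Setd1b, the catalytic subunit of one of the complexes that place trimethylation broadly, of 0.19 (−0.01 to 0.39). Kmt2e, a family member whose own methyltransferase activity is doubtful, was at 0.12 (−0.04 to 0.27); its 3 knockout arrays (8.36 to 8.38) lay above the wild type arrays (8.13 to 8.35) by as little as 0.01. Kmt2b was at 0.06 (−0.09 to 0.20), Setd1a, the paralog of Setd1b in a complex of its own, at 0.02 (−0.14 to 0.18) and Kmt2a, which maintains expression of developmental genes, at 0.01 (−0.18 to 0.21). The fold changes of Kmt2a and Setd1a turned slightly negative, −0.04 and −0.03, with each array centred on its median.

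Wdr82 encodes the subunit that ties the Setd1 complexes to RNA polymerase II. Its signals were 9.0, 8.57 and 8.87 in knockout and 8.27, 8.0, 8.28 and 8.49 in wild type. The genotypes did not overlap, but knockout 2 and wild type 4 lay 0.08 apart. On the log2 scale Wdr82 rose by 0.55 (SE 0.13, limma adjusted p = 0.0292), and within groups a, b and c it was 0.73, 0.43 and 0.38. Without knockout 1, knockout 3, wild type 1, wild type 2 or wild type 3 the adjusted p was 0.0954, 0.0968, 0.0754, 0.0621 and 0.0525, so the call held in 2 of 7 such fits, while the fold change stayed between 0.46 and 0.68.

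Hcfc1, an X-linked gene for a scaffold protein of the Setd1 and Kmt2a complexes, gave a tighter difference. Knockout signals were 7.22, 7.18 and 7.19, and wild type signals were 6.74, 6.45, 6.84 and 6.71. The knockout arrays agreed within 0.04 and lay at least 0.34 above every wild type array. Hcfc1 rose by 0.51 on the log2 scale (SE 0.09, limma adjusted p = 0.0144), and the difference was 0.48, 0.54 and 0.48 within groups a, b and c. Without knockout 3 it was 0.52 and the adjusted p 0.0563.

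The 4 core subunits of the writer complexes did not pass the test. Wdr5, the WD40 subunit that holds the complex together, had signals of 8.07, 8.08 and 8.07 in knockout and 8.07, 8.02, 8.17 and 8.01 in wild type. These overlap fully, and the log2 fold change was 0.01 (95% interval −0.14 to 0.15). Rbbp5, another WD40 core subunit, was at 0.06 (−0.09 to 0.20). Both values lie near 0, and that of Wdr5 turned to −0.04 with median centring.

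Ash2l and Dpy30, which bind each other in the same core, both had lower means in knockout testis without passing the test. Ash2l signals were 10.11, 10.31 and 10.26 in knockout and 10.39, 10.38, 10.41 and 10.38 in wild type. Every knockout array was below every wild type array (difference −0.16 on the log2 scale, SE 0.07, limma adjusted p = 0.119). A dimmer Ash2l probe set was at −0.05 with overlapping arrays (SE 0.06, limma adjusted p = 0.629 over all probe sets). Dpy30 signals were 10.36, 10.52 and 10.41 against 10.52, 10.66, 10.55 and 10.61, which meet at 10.52 (−0.16, SE 0.07, adjusted p = 0.142).

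Cxxc1, the CpG-binding subunit that brings Setd1 complexes to unmethylated promoters, had signals of 8.39, 8.43 and 8.27 in knockout and 8.57, 8.57, 8.57 and 8.56 in wild type. The wild type arrays agreed almost exactly and all knockout arrays were lower, with a mean difference of −0.20 on the log2 scale (SE 0.06, limma adjusted p = 0.0531). It was −0.18, −0.14 and −0.29 within groups a, b and c.

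Among the subunits particular to one kind of complex, Men1 (menin, of the Kmt2a and Kmt2b complexes) had a log2 fold change of 0.06 (95% interval −0.16 to 0.28). Paxip1 (−0.16, −0.37 to 0.04) and Ncoa6 (−0.10, −0.23 to 0.04), both subunits of the Kmt2c and Kmt2d complexes, had means opposite in sign to that of Kmt2c. None of the 3 passed, and the median of all 10 subunits was −0.05, equal to that of all genes.

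**Figure D2:**
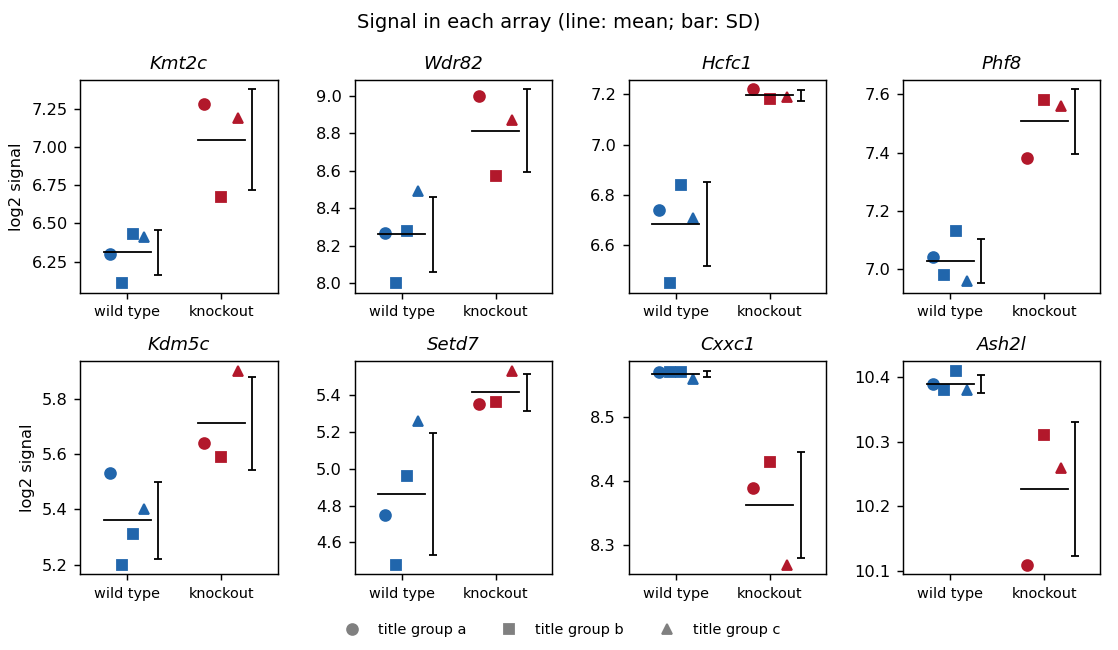
Log2 signal (y axis, each panel on its own scale) of 8 genes in the 4 wild type arrays (blue) and 3 knockout arrays (red), with the mean as a line, the SD as a bar and symbols for the title-number groups a, b and c. In each panel the genotypes do not overlap; the gap is widest for Hcfc1 (0.34) and Phf8 (0.25), and Cxxc1 and Ash2l are the panels in which knockout lies below.

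The genotypes were fully apart for 10 of the 29 members (34.5%), against 28.0% of all genes. By direction, knockout lay wholly above wild type for 8 (27.6%, against 12.8% of all genes) and wholly below it for 2 (6.90%, against 15.2%). These shares are descriptions, and the difference from all genes was not tested.

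The 6 genes grouped as erasers had a median log2 fold change of 0.24, and the 5 without Phf8 one of 0.13. Phf8 encodes a demethylase that binds H3K4 trimethylation through its PHD finger and removes methyl groups from other histone residues. Its signals were 7.38, 7.58 and 7.56 in knockout and 7.04, 6.98, 7.13 and 6.96 in wild type, at least 0.25 apart. It rose by 0.48 on the log2 scale (SE 0.07, limma adjusted p = 0.0120), the smallest adjusted p of the members, and 0.34, 0.53 and 0.60 within groups a, b and c. Without knockout 3 it was 0.45 and the adjusted p 0.0510.

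Kdm5c, an X-linked demethylase of H3K4 di- and trimethylation, had signals of 5.64, 5.59 and 5.90 in knockout and 5.53, 5.20, 5.31 and 5.40 in wild type. The genotypes did not overlap, by a margin of 0.06 between knockout 2 and wild type 1. Their means differed by 0.35 (SE 0.10, limma adjusted p = 0.0519). Kdm1b, the flavin-dependent demethylase needed for imprints in oocytes, gave 5.61, 5.61 and 5.68 against 5.33, 4.89, 5.50 and 5.41, again without overlap (0.35, SE 0.13, adjusted p = 0.108).

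The other erasers showed smaller differences that did not pass. Kdm5a was at 0.13 (95% interval −0.03 to 0.30) and Kdm5b, a relative with high expression in testis, at 0.05 (−0.08 to 0.19). Kdm1a (LSD1), the eraser of mono- and dimethylation in the CoREST complex, was at −0.11 (−0.27 to 0.05). Kdm1a lies on chromosome 4, the chromosome of Phf13, where 87 of 1087 tested genes rose and 90 fell. These shares, 8% and 8.28%, are near the 9.07% and 7.05% of all genes. The shares cover the whole chromosome, and genes close to Phf13 were not looked at apart.

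Of the 5 readers, the Ing genes, 0 rose and 0 fell in limma, and 0 had an unadjusted p under 0.05. Ing proteins bind H3K4 trimethylation through a PHD finger and bring histone acetyltransferases (Ing3, Ing4, Ing5) or deacetylases (Ing1, Ing2) to it. Ing5 had the lowest value at −0.20 (95% interval −0.40 to 0.003), with signals of 7.11, 7.39 and 7.30 in knockout and 7.39, 7.58, 7.36 and 7.54 in wild type. Those ranges overlap. Ing1 was at 0.11 (−0.04 to 0.27), Ing2, whose loss is known to impair spermatogenesis in mice, at −0.03 (−0.17 to 0.10) and Ing3 at 0.01 (−0.12 to 0.15). Ing4, at −0.14 (−0.43 to 0.15), was dim, at percentile 25.8.

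**Figure D3:**
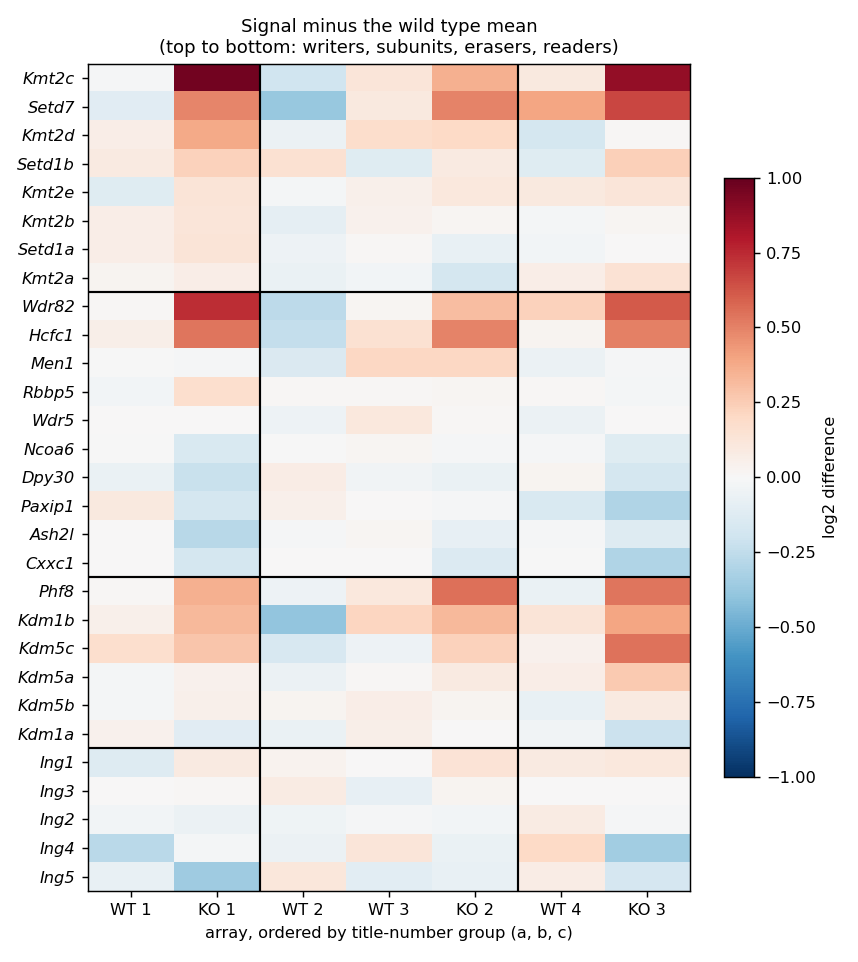
Log2 signal of each of the 29 genes in each array minus that gene's wild type mean (colour, from −1 in blue to 1 in red), with rows in 4 blocks by role and columns ordered by title-number group. Kmt2c, Setd7, Wdr82, Hcfc1, Phf8, Kdm1b and Kdm5c are red in all 3 knockout columns, and wild type 2 is blue for most of them.

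The arrays of one genotype also differed in a shared way. Of the 8 members whose knockout arrays were all higher, wild type 2 was the lowest wild type array for 6 (Kmt2c, Setd7, Wdr82, Hcfc1, Kdm1b and Kdm5c) and knockout 2 the lowest, alone or tied, of the knockout arrays for 6. Wild type 2 was also the lowest wild type array in the mean log2 signal of the Sertoli, Leydig, peritubular myoid, macrophage and spermatogonia marker lists.

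In these lists the knockout means lay wholly above the wild type means, except for spermatogonia, where they overlapped. Over all genes 9.07% rose and 7.05% fell. Of 13 Sertoli markers, 11 rose and 0 fell (list means 8.43 to 8.61 in knockout and 7.82 to 8.14 in wild type arrays). Of 6 Leydig markers 3 rose (9.27 to 9.68 against 8.45 to 8.98), of 9 macrophage markers 5 (6.57 to 7.21 against 6.14 to 6.45), of 7 peritubular myoid markers 3 (7.57 to 7.87 against 7.13 to 7.32) and of 9 spermatogonia markers 2 (6.98 to 7.20 against 6.75 to 6.99), with 0 falling. Of 12 spermatocyte markers 3 fell (9.30 to 9.47 against 9.47 to 9.55), of 9 round spermatid markers 2 (10.37 to 10.40 against 10.46 to 10.67) and of 10 elongating spermatid markers 2 (12.61 to 12.63 against 12.67 to 12.77), with 0 rising. With the title-number groups as block, whose arrays deviated together (correlations of 0.182, 0.103, 0.164 and 0.319 for pairs of opposite genotype), 9 Sertoli, 3 Leydig, 3 peritubular myoid and 2 macrophage markers rose and 3 spermatocyte markers fell. In that fit 0 spermatogonia, round spermatid and elongating spermatid markers passed, and over all 18194 genes 1402 rose and 915 fell. Germ cell lists were bright in every array, which fits the labelled tissue. Endothelial (7 genes, 4.42 to 4.71 against 4.38 to 4.59), lymphocyte (6, 4.26 to 4.42 against 4.20 to 4.36) and epididymis markers (5, 3.44 to 4.19 against 3.53 to 4.15) were dim, with 0 past the threshold in limma and 0, 2 and 0 at an unadjusted p under 0.05. Whole testis gives no value per cell, so fewer cells of a type and less RNA per cell cannot be told apart, and the part of the marker shifts in the differences of Kmt2c, Wdr82, Hcfc1 and Phf8 was not tested.

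Several genes carried more than 1 probe set, and these did not always give the same value. In all, 80 single-symbol probe sets belonged to the 29 genes, and with every probe set of the array tested 8 of them rose and 1 fell, 11.2% against 11.4% of all probe sets. For Kmt2c, a second probe set rose by 0.49 on the log2 scale (SE 0.09, limma adjusted p = 0.0190 over all probe sets, as for the other probe sets below), and another had 0.39 (SE 0.11, adjusted p = 0.0504). The dimmest, with a mean log2 signal of 3.91, had 0.08. So 3 of 4 Kmt2c probe sets gave a higher mean in knockout by 0.39 or more.

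The dimmer probe sets of Hcfc1 and Phf8 gave smaller differences, with overlapping arrays, and none passed. For Hcfc1 they were 0.12 (SE 0.07, limma adjusted p = 0.281) and 0.21 (SE 0.10, adjusted p = 0.175). For Phf8 they were 0.25 (SE 0.13, adjusted p = 0.255) and 0.13 (SE 0.11, adjusted p = 0.462). With the mean of a gene's probe sets the log2 fold change was 0.42 for Kmt2c, 0.28 for Hcfc1 and 0.29 for Phf8, each over 1.5 times smaller than on the brightest, at adjusted p-values of 0.0212, 0.0296 and 0.0332.

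For Kdm5c, whose brightest of 9 probe sets missed the threshold, the next 2 in brightness rose. One had signals of 5.79, 5.65 and 6.05 in knockout and 5.30, 4.99, 5.49 and 5.11 in wild type (log2 fold change 0.61, SE 0.14, limma adjusted p = 0.0281). The other had 5.72, 5.49 and 5.72 against 5.17, 5.21, 5.28 and 5.39 (0.38, SE 0.08, adjusted p = 0.0276). The genotypes did not overlap on any of the 3. On the other 6, all dimmer, they overlapped, with log2 fold changes of −0.06 to 0.14 that did not pass. The mean of all 9 gave 0.18 (adjusted p = 0.0670), against 0.35 on the brightest.

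The second Cxxc1 probe set fell, with signals of 6.35, 6.76 and 6.49 in knockout and 6.96, 7.22, 7.05 and 6.94 in wild type. Its log2 fold change of −0.51 (SE 0.11, limma adjusted p = 0.0261) has the sign of the brighter one and is larger. For Kmt2a the probe sets differed more: the brighter was at 0.01, while a dim one rose from 4.16, 4.34, 4.17 and 4.22 in wild type to 4.74, 4.71 and 4.92 in knockout (0.57, SE 0.08, adjusted p = 0.0137). No source used here says which Kmt2a or Cxxc1 transcripts each probe set detects.

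**Figure D4:**
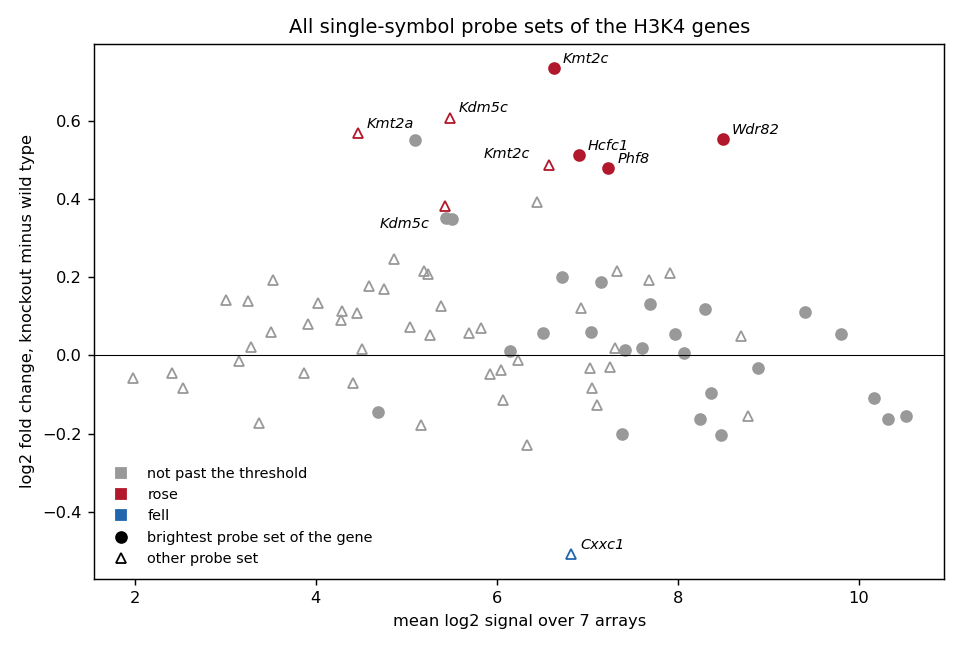
Log2 fold change (y axis) against mean log2 signal over the 7 arrays (x axis) for the 80 single-symbol probe sets of the 29 genes, with filled circles for the brightest probe set of a gene and open triangles for the others. The 8 that rose (red) belong to 6 genes and lie between mean signals of 4.47 and 8.50, and the 1 that fell (blue) is the second Cxxc1 probe set at −0.51.

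All 3 X-linked members, Hcfc1, Phf8 and Kdm5c, were higher in every knockout array than in every wild type array, and 2 of them rose. All knockout arrays were higher for 39.9% of X-linked genes and for 12.8% of all genes. The X chromosome is transcriptionally silenced in spermatocytes, and many of its genes stay low in spermatids. Over the 617 X-linked genes tested, 31.4% rose and 0 fell in limma (2 were lower at an unadjusted p under 0.05), with a median log2 fold change of 0.18. A higher signal in knockout testis was thus common among X-linked genes, not particular to these 3. Kdm6a, a further X-linked gene and the H3K27 demethylase of the Kmt2c and Kmt2d complexes, had 6.56, 6.27 and 6.73 in knockout against 5.96, 5.82, 6.24 and 6.25 in wild type (0.45, SE 0.14, adjusted p = 0.0604). Its dimmer probe sets were at 0.58, 0.0008 and 0.11, and none passed (limma adjusted p = 0.0836, 0.997 and 0.663 over all probe sets). Outside the X chromosome, 2 of 26 measured members rose (7.69%), near the 9.07% of all genes, a share that still includes the X-linked genes.

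**Figure D5:**
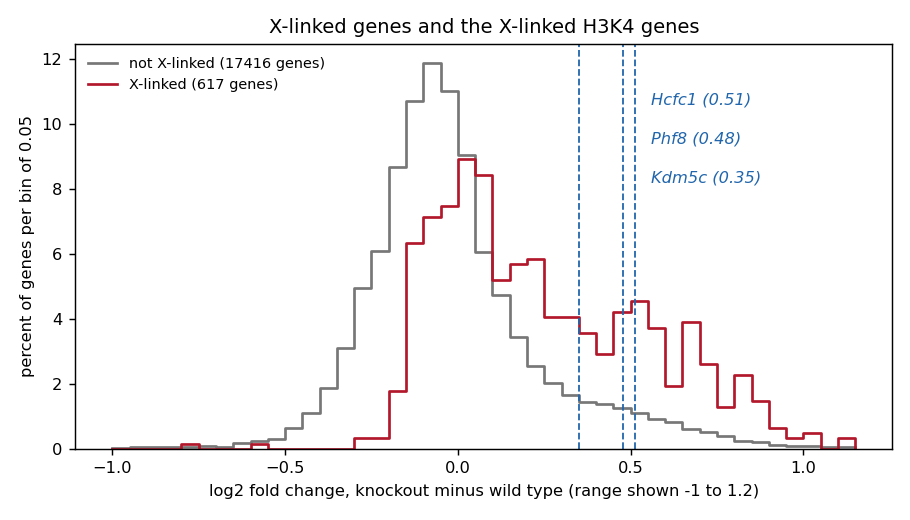
Distribution of log2 fold changes (x axis, knockout minus wild type, from −1 to 1.2) of 617 X-linked genes (red) and 17416 other genes with a known chromosome (grey), as the percent of genes per bin of 0.05 (y axis). Dashed lines mark Kdm5c (0.35), Phf8 (0.48) and Hcfc1 (0.51), which lie in the right-hand part of the X-linked distribution.

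The promoters of the 4 members that rose and of Kdm5c, the remaining X-linked member, are shown because 4 of these 5 share a short sequence near the start of transcription. The 5 were chosen after the windows had been read. Each window runs from 250 bases before to 50 bases after the start, 5′ to 3′ on the gene's strand, from RefSeq on GRCm38.p6, and capitals mark the letters AAGATGGCG, the core that the zinc finger factor YY1 is known to bind. The windows are chr9:106170679-106170978 (plus strand) for Wdr82, chrX:73966308-73966607 (minus strand) for Hcfc1, chrX:151520422-151520721 (plus strand) for Phf8, chrX:152232977-152233276 (plus strand) for Kdm5c and chr5:25498734-25499033 (minus strand) for Kmt2c.
Wdr82: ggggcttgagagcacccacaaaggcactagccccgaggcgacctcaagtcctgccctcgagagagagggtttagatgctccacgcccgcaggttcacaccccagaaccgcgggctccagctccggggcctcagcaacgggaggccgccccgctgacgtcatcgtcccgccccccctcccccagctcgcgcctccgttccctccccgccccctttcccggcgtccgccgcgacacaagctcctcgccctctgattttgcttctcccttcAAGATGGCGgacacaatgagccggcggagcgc
Hcfc1: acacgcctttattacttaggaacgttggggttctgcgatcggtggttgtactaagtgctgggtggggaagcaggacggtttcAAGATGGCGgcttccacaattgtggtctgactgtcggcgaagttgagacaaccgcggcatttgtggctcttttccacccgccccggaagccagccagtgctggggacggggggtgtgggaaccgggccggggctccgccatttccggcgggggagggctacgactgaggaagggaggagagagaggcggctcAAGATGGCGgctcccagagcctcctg
Phf8: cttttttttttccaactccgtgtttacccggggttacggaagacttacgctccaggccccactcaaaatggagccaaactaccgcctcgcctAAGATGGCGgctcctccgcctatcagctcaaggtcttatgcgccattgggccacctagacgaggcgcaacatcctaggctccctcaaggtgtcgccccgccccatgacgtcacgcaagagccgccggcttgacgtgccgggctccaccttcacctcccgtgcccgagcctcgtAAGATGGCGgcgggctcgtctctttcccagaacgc
Kdm5c: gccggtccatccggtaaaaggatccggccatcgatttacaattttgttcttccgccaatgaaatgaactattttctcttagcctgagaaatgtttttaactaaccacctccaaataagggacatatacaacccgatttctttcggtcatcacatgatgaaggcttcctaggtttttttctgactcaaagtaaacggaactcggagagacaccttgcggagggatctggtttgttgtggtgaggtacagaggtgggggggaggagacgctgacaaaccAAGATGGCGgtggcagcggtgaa
Kmt2c: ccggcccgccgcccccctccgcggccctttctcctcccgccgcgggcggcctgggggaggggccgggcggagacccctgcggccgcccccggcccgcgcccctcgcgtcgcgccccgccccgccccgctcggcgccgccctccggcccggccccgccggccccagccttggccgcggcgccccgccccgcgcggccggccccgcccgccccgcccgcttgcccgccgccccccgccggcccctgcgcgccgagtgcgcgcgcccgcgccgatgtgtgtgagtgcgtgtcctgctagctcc

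Wdr82 and Kdm5c each hold 1 match, whose first base is base 19 and base 28 after the start. Hcfc1 and Phf8 each hold 2, at 168 bases before and base 25 after the start in Hcfc1, and at 158 bases before and base 16 after in Phf8. Kmt2c holds none, and its window has 56 CpG dinucleotides where the other 4 have 13 to 28. Of the 8 members with all knockout arrays higher, 7 have a window and 4 of these a match; Kmt2c, Setd7 and Kdm1b have none. On either strand the 9 letters occur in 461 of all 32851 promoter windows (1.4%). Promoter windows were found for 23 of the 30 members, and 5 of these genes hold a match, the fifth being Ing5 (log2 fold change −0.20). Among tested genes with a window, a match occurred in 2.42% of those that rose, 2.57% of those that fell and 2.53% of the others. Whether the letters go with a change in knockout testis was not tested. Of the 527 X-linked genes with a window, 13 hold a match (2.47%). That share includes the 168 that rose, of which 9 hold it (5.36%). Counted per gene, the cyclic AMP response element TGACGTCA occurs in 2.92% of tested genes with a window (1.79% of windows) and in 4 of the 23 members, Wdr82, Phf8, Ing3 and Ing4. The GC box GGGCGG occurs in 57.3% of such genes (35.7% of windows), in 74.0% of those that rose, in 57.1% of those that fell and in 17 of the 23 members (73.9%). These 3 were among 9 motifs searched, and the letters shown were picked after the windows had been read; a match describes the letters only.

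A wider list held 36 other genes of H3K4 methylation, its readers and the CoREST complex. Among the 35 with a value, 2 passed as higher (5.71%, against 9.07% of all genes), 1 as lower (2.86%, against 7.05%) and 32 in neither direction, with a median log2 fold change of 0.02. Spin1, which encodes a reader of H3K4 trimethylation, rose: its signals were 9.78, 9.80 and 10.13 in knockout and 9.09, 8.89, 9.41 and 9.30 in wild type. These do not overlap, and the means differ by 0.73 on the log2 scale (SE 0.14, limma adjusted p = 0.0158), as large as that of Kmt2c. Its adjusted p was 0.0596 without knockout 3 and 0.0535 without wild type 1. Of its 4 probe sets, 3 rose with all probe sets tested.

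Hmg20b, a CoREST complex subunit, had 6.35, 6.25 and 6.18 in knockout against 5.94, 5.83, 6.12 and 5.82 in wild type. It rose by 0.33 on the log2 scale (SE 0.09, limma adjusted p = 0.0382), but a block for the title-number groups gave an adjusted p of 0.0530 and one for the replicate numbers 0.105. It also missed the threshold with quantile normalization (0.0610) and with median centring (0.0529), and the call held in 1 of 7 fits that left out 1 array, that without wild type 3. Chd1, a chromatin remodeller that binds H3K4 trimethylation, fell on its brightest probe set by 0.33 (SE 0.09, adjusted p = 0.0415). The call was lost in each of the 7 fits that left out 1 array (−0.41 to −0.28), and a dimmer Chd1 probe set rose by 0.26 (adjusted p = 0.0353 over all probe sets), so these probe sets give no single direction.

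Prdm9, the meiotic H3K4 methyltransferase, had nearly equal signals of 5.14, 5.14 and 5.21 in knockout and 5.14, 5.06, 5.12 and 5.17 in wild type. The log2 fold change was 0.04 (95% interval −0.09 to 0.17), at a dim percentile of 32.4. Psip1, whose product tethers the menin complex to chromatin, also lies on chromosome 4. It had 10.67, 10.69 and 10.54 against 10.84, 10.81, 10.83 and 10.82, without overlap (−0.19, SE 0.06, limma adjusted p = 0.0639). Kdm5d, the Y-linked counterpart of Kdm5c, was at 0.57 (SE 0.19, adjusted p = 0.0722) with a signal at percentile 12.4, and its arrays overlapped.

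The 4 calls depended unequally on single arrays. All 4 passed without knockout 2 and without wild type 4, and Hcfc1 and Phf8 each passed in 6 of 7 fits that left out 1 array. Without knockout 3 none of the 4 members passed the adjusted threshold, and none did without knockout 3 and wild type 4 together, when the log2 fold changes were 0.70 for Kmt2c, 0.60 for Wdr82, 0.52 for Hcfc1 and 0.43 for Phf8. In those settings 175 and 4 of all 18194 genes passed. All 4 passed in a fit blocked on the title-number groups, at adjusted p-values of 0.0303, 0.0327, 0.0332 and 0.0249.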

How the data were processed

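The authors' deposited table gives log2 signals of 45101 probe sets on 7 arrays. The submitters' processing notes name Affymetrix Expression Console 1.4.1; summarisation and normalization are not given in the sources used here. Total RNA was extracted with Trizol and 2 ug labelled, per the labels' protocols. The log2 scale was read from the range, 1.59 to 13.92. Gene names came from the platform annotation: 34958 probe sets had 1 symbol, 932 several (not used) and 9211 none.

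Knockout and wild type were tested in R 4.3.3 by limma 3.58.1 (lmFit, eBayes, two-sided), with p adjusted by Benjamini-Hochberg over 18194 genes, each represented by its brightest probe set; intervals are 95%. No dim gene was removed. The number of arrays limits precision; the median SE was 0.0843. The fit was tested on simulated data. Alternatives were quantile normalization, median centring, dim genes left out, mean or all probe sets, trend and robust settings, array weights, blocks and arrays left out. Every measured member is named; of the 36 other H3K4 genes those that passed and Prdm9, Kdm6a, Kdm5d and Psip1; and marker lists by their counts. Members and lists were chosen with earlier results of these data known. Chromosomes and promoter sequences came from RefSeq tables of GRCm38.p6.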

Additional observations from a re-analysis of the deposited data

Results flagged for a closer look

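Among the 37 genes described, a wild type array stood apart from the other 3 for 2, by a test that chance meets in about 1 of 20 groups. Rbbp5 was 6.46 in wild type 1 and 6.50 in the others, and Cxxc1 was 8.56 in wild type 4 and 8.57 in the others. The Cxxc1 gap is at the rounding of the deposited values, and the Rbbp5 gap is somewhat larger.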

How the results depend on the processing

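All 4 members that rose stayed past the threshold with quantile normalization, median centring, the dimmest 33.3% of genes left out, mean or all probe sets (the mean giving 0.42 for Kmt2c, 0.28 for Hcfc1 and 0.29 for Phf8), trend and robust settings, array weights and both blocks. The replicate numbers did not pair the arrays (deviations of same-numbered arrays correlated at 0.182, 0.103 and −0.143). Those sharing a title-number group all correlated above 0.1 (0.103 to 0.319). With the replicate block the 4 members passed and Setd7 joined them (log2 fold change 0.68, limma adjusted p = 0.0127), while Hmg20b did not pass (adjusted p = 0.105). Wild type 4 alone has its replicate number, so that block takes it out of the genotype difference. The Setd7 fold change is therefore the same as without wild type 4. With 1 array left out, 0 to 5 members rose; 175 to 2574 genes passed of 2934; other H3K4 genes that rose numbered 0 to 2 and those that fell 0 to 1. Without knockout 3 and wild type 4 together, 4 genes passed, 0 members rose and 0 other H3K4 genes rose or fell. Members that fell numbered 1, not 0, with median centring, without the dimmest genes, with the mean of probe sets and with array weights, each time Cxxc1. Setd7 also rose with median centring, with trend and robust settings and with array weights. Kdm5c rose without the dimmest genes and with trend and robust settings. With the mean of probe sets Kmt2a rose (0.29, limma adjusted p = 0.0297). Other H3K4 genes that rose numbered 4 without the dimmest genes and with trend and robust settings, and 1 with the title-number block; with median centring 2 rose, but Kdm6a in place of Hmg20b; those that fell numbered 3 with median centring, 2 without the dimmest genes and with trend and robust settings, and 0 with the mean of probe sets. Values near 0 changed sign. With quantile normalization Kmt2a was −0.041, Setd1a −0.0018, Rbbp5 −0.0057, Men1 −0.0030, Ing2 0.017 and Ing3 −0.030. With median centring Kmt2a was −0.036, Setd1a −0.028, Wdr5 −0.042, Ing3 −0.034 and Prdm9 −0.0067. With the mean of probe sets Wdr5 was −0.060 and Chd1 0.13. Wdr5 was −0.013 with the replicate block, and Kmt2a −0.016 with the title-number block. Without knockout 3 and wild type 4, Kmt2a was −0.033, Wdr5 −0.012 and Ing4 0.025. With 1 array left out the ranges were −0.055 to 0.105 for Kmt2a, −0.0375 to 0.0675 for Setd1a, −0.013 to 0.040 for Wdr5, −0.0125 to 0.13 for Men1 and −0.013 to 0.040 for Ing3. The causes were not tested.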
